A study of Mus musculus with 80 samples.

Results

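DNA methylation in E14, a wild-type mouse embryonic stem cell (ESC) line, was compared between cells grown in serum with LIF and the same line 168 h after transfer to 2i. Serum-free 2i medium holds LIF with the MEK inhibitor PD0325901 and the GSK3 inhibitor CHIR99021. Reduced representation bisulfite sequencing (RRBS) was read for 4 of the 80 samples of the series, 2 in serum and 2 at 168 h. The autosomes were divided into tiles of 500 bp, and a tile was a member of the comparison when each of the 4 samples had 20 or more methylation calls at 3 or more cytosine positions in it. Of 427231 autosomal tiles with a call in any of the 4 samples, 62696 met this rule. The comparison asked how much methylation was lost in 2i and whether the loss depended on the starting level, the CpG density and the chromosome.

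In mammals methylation sits mainly at CpG dinucleotides. DNMT1, guided by UHRF1, copies it onto the new strand at replication, and DNMT3A and DNMT3B place it anew. CpG islands, dense in CpGs and frequent at gene starts, are mostly free of it in ESCs, while most other CpGs carry it. Cells in serum are highly methylated, and cells in 2i, which resemble the naive inner cell mass, lose much of it. In bulk cells, a level may mean that some cells carry the mark fully or that all carry it in part, and these cannot be told apart. Promoters of germ line genes and the control regions of imprinted genes are exceptions, being CpG-rich and methylated, the latter on the copy from a single parent. RRBS cuts DNA at CCGG sites, so it samples CpG-rich DNA and a smaller part of the CpG-poor genome.

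The samples held between 15495369 and 30269737 autosomal calls. The second 168 h sample stood apart, with calls at 1120070 positions against 1474684 or more in the others and a median of 26 calls per position against 10 to 12. Of all autosomal calls, 21.5% and 22.1% were methylated in serum and 10.5% and 7.32% at 168 h, so that without tiles the 168 h samples differed. A tile held a median of 95 to 181 calls per sample. Replicates differed beyond the sampling noise of their calls (chi-square per degree of freedom 1.62 in serum and 1.49 at 168 h), so that no sample was a second copy of another. The labels do not say whether replicates came from separate cultures, so the spread behind the p-values may be technical. For single tiles, the main test used a spread shared by tiles of similar depth, not the tile's own. Calls without molecular identifiers can be copies of 1 molecule, so intervals cover counting error only.

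Cell identity could be checked only in RNA-seq of other E14 samples, which holds no sample of 168 h. Mean log2 expression of 10 ESC markers, among them Pou5f1 and Nanog, ran from 5.17 to 9.12 in serum and from 4.36 to 10.4 at 72 h of 2i. The median over all 25965 genes in serum was -1.26 on this scale. The 6 markers of fibroblast feeders stood at -5.44 to 2.49 in serum, the 5 of primitive endoderm at -2.27 to 0.90, and the 3 neural markers at -0.04 to 2.83.

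Promoter sequences show how the methylated exceptions look. A set of 4 is printed, the start of an imprinted gene that kept much of its methylation and the starts of 3 germ line genes that kept less of it, to show CpG-rich starts that ended at different levels. They also differ in CpG content and in serum level. Each is 250 bases before the start of the gene, 5′ to 3′, from RefSeq (GRCm38.p6), with every CpG in capitals. Plagl1 (chr10:13090582-13090831, plus strand) encodes an imprinted zinc finger factor and holds 19 CpGs in this stretch. Tex101 (chr7:24672051-24672300, minus strand), a germ cell surface protein, holds 14. Sycp1 (chr3:102936101-102936350, minus strand), a protein of the synaptonemal complex of meiosis, holds 17. Asz1 (chr6:18109062-18109311, minus strand), which acts against transposons in the germ line, holds 15.
Plagl1: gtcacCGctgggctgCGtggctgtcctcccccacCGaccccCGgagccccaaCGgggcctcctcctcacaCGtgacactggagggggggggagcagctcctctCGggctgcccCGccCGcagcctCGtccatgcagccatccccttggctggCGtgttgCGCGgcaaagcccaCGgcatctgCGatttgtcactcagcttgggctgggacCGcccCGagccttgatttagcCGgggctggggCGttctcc
Tex101: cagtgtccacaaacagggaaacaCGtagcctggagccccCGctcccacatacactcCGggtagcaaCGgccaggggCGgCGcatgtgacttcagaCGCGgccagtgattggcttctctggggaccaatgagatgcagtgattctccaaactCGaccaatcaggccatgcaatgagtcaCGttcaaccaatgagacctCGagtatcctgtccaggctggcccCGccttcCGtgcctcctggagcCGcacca
Sycp1: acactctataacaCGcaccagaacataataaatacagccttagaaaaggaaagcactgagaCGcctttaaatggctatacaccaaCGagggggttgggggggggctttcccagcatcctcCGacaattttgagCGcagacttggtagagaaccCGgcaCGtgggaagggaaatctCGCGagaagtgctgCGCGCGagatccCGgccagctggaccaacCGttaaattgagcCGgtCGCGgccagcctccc
Asz1: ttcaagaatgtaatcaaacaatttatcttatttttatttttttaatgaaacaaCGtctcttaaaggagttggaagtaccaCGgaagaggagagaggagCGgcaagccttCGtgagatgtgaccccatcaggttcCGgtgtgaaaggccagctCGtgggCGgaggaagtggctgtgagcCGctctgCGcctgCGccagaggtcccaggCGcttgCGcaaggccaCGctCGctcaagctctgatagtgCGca

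Over the calls in these windows, Plagl1 stood at 93.0% and 82.8% in serum and at 57.6% and 73.3% at 168 h (58 to 86 calls per sample). Tex101 fell from 92.4% and 86.2% to 43.9% and 46.3% (41 to 87 calls). Sycp1 fell from 70.9% and 64.3% to 33.5% and 32.7% (179 to 556 calls), and Asz1 from 58.4% and 59.0% to 15.8% and 20.3% (61 to 133 calls). In all 4 windows both 168 h samples were below both serum samples, and those of Plagl1 were the highest. The means of all tiles fell in the same order at every starting level, so this order is not particular to the windows. The letters TGCCGC, the core of the motif bound by ZFP57, a protein that holds methylation at imprinted regions, were searched on both strands. They occurred once in Plagl1 and once in Asz1 and in neither of the other two, and 8.68% of all 32851 promoters and 15.7% of the 15982 with 8 or more CpGs hold them in the 250 bases before the start. Of other listed starts they occurred once in Dazl and not in Slc25a31, Nnat or Peg3.

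Across the tiles, methylation roughly halved. The mean tile stood at 36.2% and 36.9% in the serum samples and at 17.3% and 17.5% at 168 h. The fall of 19.1 percentage points was far larger than the spread within either pair. Its size depended on what was averaged, being -12.5 points in tiles with 5 or more positions, -9.50 as a mean over positions and -7.41 over pooled calls. With 2 samples against 2 an exact two-sided permutation test cannot go below p = 0.333, and it gave p = 0.333. A tile was called when a quasi-binomial test gave an adjusted p under 0.05 and the group means differed by 20 points or more. By this rule 26525 tiles (42.3%) were lower at 168 h and 0 tiles (0%) were higher. The largest rise of any tile was 16.9 points, so by this rule no tile could be called higher at any p-value. The 0 given by limma and by Fisher's exact test with the same minimum was fixed in the same way. Without the minimum difference, 37211 tiles (59.4%) were lower and 12 higher, and 20 were higher at an unadjusted p under 0.05.

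Many tiles had little to lose. Tiles under 20% in serum numbered 32163, none of which could fall by 20 points, and of the 30533 at 20% or more 86.9% were called lower. The 26836 tiles under 5% in serum, mainly CpG-dense, averaged 0.885% and 1.45% in serum and 0.375% and 0.398% at 168 h. The 5327 tiles between 5 and 20% fell from 10.2% and 11.3% to 2.02% and 2.07%.

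**Figure D1:**
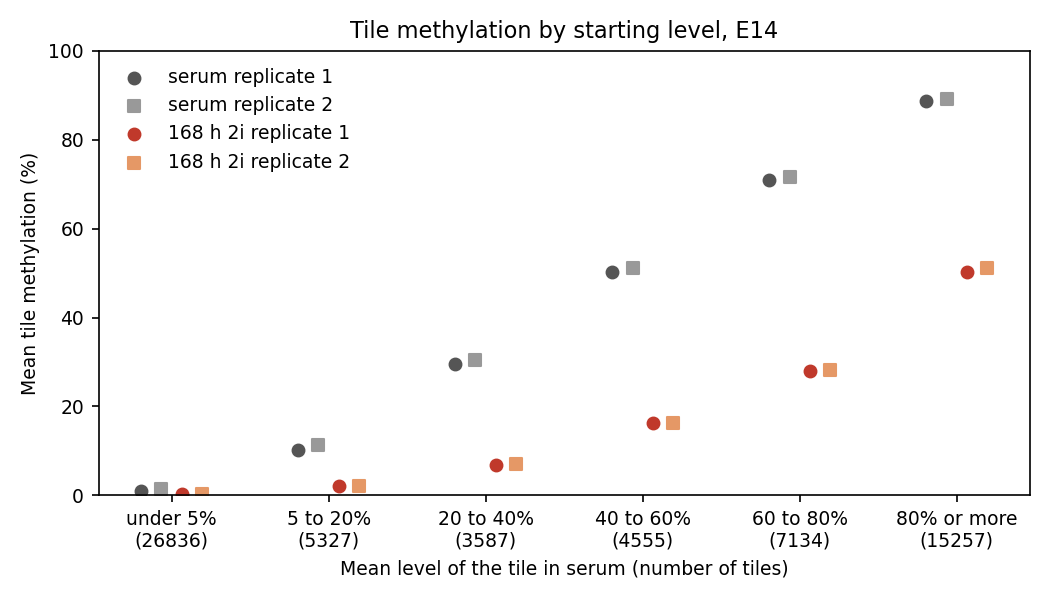
Mean methylation (%) of the tiles of each starting class in each of the 4 samples (circles and squares are replicates 1 and 2; the number of tiles stands under each class). In every class both 168 h samples lie below both serum samples, and in tiles of 80% or more they lie at 50.3% and 51.0%.

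Across the classes above 5% in serum, the part of the methylation that was kept grew with the starting level. Retention is the mean of a class at 168 h as a percent of its mean in serum. Both 168 h samples were divided by the same serum mean, so the SD of retention leaves out the spread in serum. It was 33.0% ± 1.41 in the tiles under 5%, where both means were near 1% or less, and 19.03% ± 0.296 in those of 5 to 20%. For tiles under 5% on 1 serum sample, with the serum level read from the other, it was 23.7% and 25.3% when cut on the first. Cut on the second, it was 39.1% and 41.1%. In the 3587 tiles of 20 to 40%, the serum samples averaged 29.5% and 30.5% and the 168 h samples 6.92% and 7.11%, a retention of 23.4% ± 0.447 (SD over the 2 samples at 168 h). Retention was 31.9% ± 0.0128 in the 4555 tiles of 40 to 60%, which fell from 50.2% and 51.2% to 16.2% in both samples. It was 39.4% ± 0.231 in the 7134 tiles of 60 to 80%, which fell from 70.9% and 71.6% to 27.9% and 28.1%. The 15257 tiles of 80% or more fell from 88.7% and 89.1% to 50.3% and 51.0%, a retention of 57.0% ± 0.597. Above 5% in serum, retention of the class means rose from class to class in both samples of 168 h, but single tiles of different classes overlapped. The tenth and ninetieth percentiles of tile levels at 168 h were 10.5% and 46.6% in tiles of 60 to 80%. In tiles of 80% or more they were 28.9% and 74.6%.

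Seen in points, the loss was greatest in the upper middle of the range. Tiles of 75 to 80% in serum lost 44.7 points on average and tiles of 95 to 100% lost 27.8. In steps of 5 points, retention was lowest at 18.4% in tiles of 10 to 15% and rose to 46.7% in tiles of 80 to 85%, 53.7% in tiles of 85 to 90%, 62.5% in tiles of 90 to 95% and 71.2% in tiles of 95 to 100%. Retention in the class of 80% or more was 2.43 times that in the class of 20 to 40%, a log2 ratio of 1.28 (exact permutation p = 0.333, the smallest possible). Because the classes were cut on the serum values, they were also cut on 1 serum sample with the serum level read from the other, which gave a log2 ratio of 1.29. Read within CpG classes, the ratio was 1.33.

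Tiles of 80% or more in serum ended far apart, in part along their starting level, the mean at 168 h being 38.6% in tiles of 80 to 85% and 68.6% in tiles of 95 to 100%. Among the 15257 tiles of 80% or more in serum, 3.47% stood under 20% at 168 h, 23.5% between 20 and 40%, 45.1% between 40 and 60%, 22.2% between 60 and 80%, and 5.81% at 80% or more. The tenth and ninetieth percentiles were 28.9% and 74.6%. The standard deviation over these tiles was 18.0 and 17.9 points in the 168 h samples, where the number of calls alone would give 6.95 and 5.74 points, and 5.57 and 5.40 points in serum. The 2 samples of 168 h differed by a median of 6.38 points per tile. Across these tiles, which are not independent and share their CpGs between samples, the levels of the 2 samples of 168 h correlated with Pearson's r = 0.834. The choice of tiles narrows the serum range, so the serum spread is no measure of what the same tiles could show. Over all tiles r was 0.962 at 168 h and 0.989 in serum.

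The extremes show this range. Among tiles with 50 or more calls in each sample, the called tile with the largest fall, chr6:30322501-30323000 (NCBIM37) with 9 CpGs, stood at 92.4% and 93.8% in serum and at 8.60% and 8.57% at 168 h, on 79 to 140 calls. The next, chr11:109072001-109072500, fell from 96.3% and 93.1% to 13.4% and 10.3%, and the third, chr7:139529001-139529500, from 88.7% and 89.1% to 3.81% and 9.16%. At the other end, chr10:82878001-82878500 with 15 CpGs stood at 97.2% and 97.5% in serum and at 98.4% and 96.4% at 168 h (63 to 193 calls). A tile with 26 CpGs, chr6:23843501-23844000, stood at 94.8% and 93.9% and then at 92.7% and 97.9%. These tiles were chosen for their values, and no annotation of their build was used here, so the genes around them are not named.

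No tile was called as gaining methylation. Only 2 tiles rose by 10 points or more, the larger by 16.9. Among tiles with 50 or more calls in each sample the greatest rise was at chr3:37929001-37929500, from 23.7% and 14.1% to 41.4% and 24.2%, where the lower 168 h sample lay just above the higher serum sample (quasi-binomial F test, adjusted p = 0.123). This tile was called only without the second 168 h sample, at a difference of 22.5 points. The tile chr7:135831501-135832000 was next, from 25.2% and 22.5% to 36.3% and 28.4% (quasi-binomial F test, adjusted p = 0.162).

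Of tested tiles, 3426 held 60% or more in both 168 h samples, and they formed 3329 runs of adjacent tiles, 3242 of them a single tile and the longest 4 tiles. A run of 3 tiles over 1500 bp at chr12:20239001-20240500 averaged 91.9% and 89.8% in serum and 76.2% and 77.3% at 168 h. The run at chr13:45662001-45663500 averaged 93.9% in both serum samples and 74.9% and 69.8% at 168 h. These counts depend on which neighboring tiles RRBS covered, and runs of other tiles were not counted.

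CpG density was counted as the number of CpGs in a tile with a call in any of 58 bisulfite samples of the series. The second serum sample of UHRF1 WT, with next to no calls, was left out. Because dense tiles are mostly unmethylated, density was compared in the 22391 tiles of 60% or more in serum, of which 19999 (89.3%) were called lower. At this level dense tiles kept more, while over all tested tiles, which differ widely in starting level, retention was 46.4% with 20 or more CpGs and 48.2% with fewer than 10. In tiles of 60% or more, retention was 50.8% ± 0.558 in the 7112 tiles with fewer than 10 CpGs, 52.0% ± 0.467 in the 13834 with 10 to 19, 61.2% ± 0.484 in the 1374 with 20 to 29, and 65.8% ± 0.627 in the 66 with 30 to 39 (SD, n = 2). The 1445 tiles with 20 or more CpGs fell from 80.8% and 81.3% to 49.5% and 50.1%, and those with fewer than 10 from 83.7% and 84.3% to 42.3% and 43.0%. Dense tiles thus began lower and ended higher in both samples. The share called lower was 71.4% in tiles with 20 or more CpGs and 91.9% in tiles with fewer than 10.

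**Figure D2:**
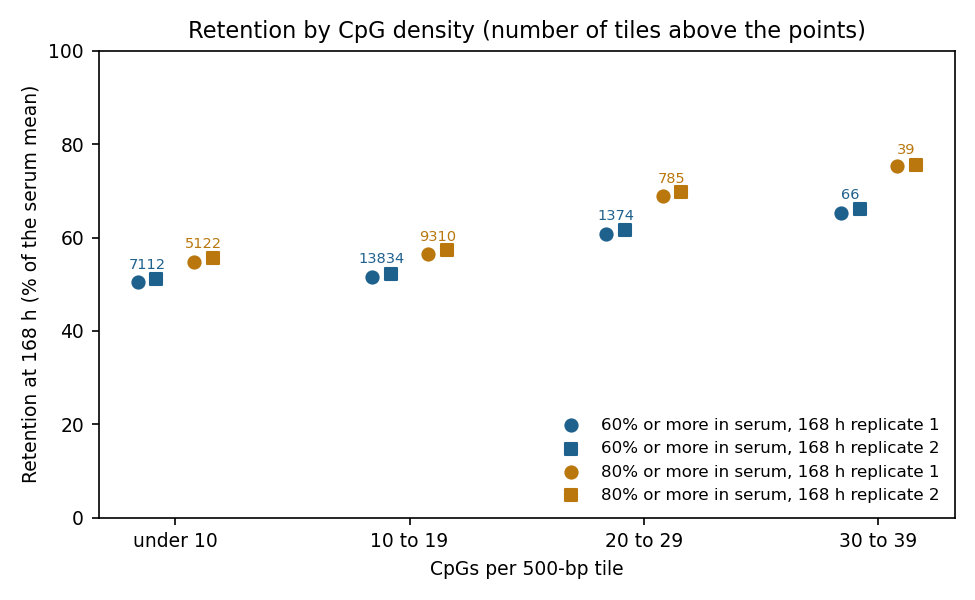
Retention at 168 h (percent of the serum mean) by number of CpGs per tile, for tiles of 60% or more (blue) and of 80% or more (orange) in serum, with 1 point per 168 h sample and the number of tiles above. Retention is 61.2% at 20 to 29 CpGs against 52.0% at 10 to 19 in the first set and 69.3% against 56.9% in the second.

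Retention in tiles with 20 or more CpGs was 1.21 times that in tiles with fewer than 10, a log2 ratio of 0.27 (exact permutation p = 0.333, the smallest possible). The ratio was larger where the starting level was held closer, 0.33 among tiles of 80% or more in serum and 0.35 as the mean over starting classes of 5 points. In single 5-point classes it ran from 0.21 to 0.50. Counted by positions with a call in all 4 samples in place of CpGs, the ratio was 0.06. With the tiles split by depth into 4 groups of similar size, retention was 52.9%, 51.6%, 51.8% and 52.5% from the fewest calls to the most. Mean CpGs rose along these groups (10.9, 11.2, 11.9 and 13.97), and the part of depth in the CpG difference was not tested.

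The tiles nearest the median fall of each density class are typical in points lost, but not in starting level. Those with 23 and 31 CpGs began well below the means of their classes and kept less than these, so the set does not show the order of retention by density. With 7 CpGs, chr8:3169501-3170000 fell from 85.9% and 89.7% to 51.4% and 40.9%. With 12 CpGs, chr15:60750501-60751000 fell from 89.7% and 95.05% to 53.6% and 49.9%. With 23 CpGs, chr4:152021001-152021500 fell from 61.9% and 65.0% to 29.8% and 30.3%, and with 31, chr10:79775501-79776000 fell from 63.5% and 64.7% to 38.1% and 30.4%. Only 5 methylated tiles held 40 or more CpGs, and the one nearest their median fall holds the start of Vmn2r29, a vomeronasal receptor, at chr7:7230501-7231000. It fell from 70.8% and 69.9% to 47.9% and 49.4% on 818 to 1481 calls per sample.

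The tiles that kept most methylation were traced in samples that did not choose them. In 879 tiles both serum samples and the mean of 168 h were at 80% or more, and in 341 tiles serum was as high and the mean of 168 h was under 20%. The kept tiles averaged 14.4 CpGs and 19.9% of them held 20 or more, while the lost tiles averaged 10.5 CpGs and 1.17% held 20 or more. Both had similar depth, with a median of 72.8 and 68 calls. In serum, which helped to choose them, the kept tiles averaged 94.4% and the lost tiles 86.2%. At 24 h of 2i, the kept tiles averaged 92.9% and 91.8% and the lost tiles 82.6% in both samples. At 48 h the kept tiles averaged 91.9% and 92.0% and the lost tiles 68.3% and 68.6%. At 72 h the values were 87.0% and 86.7% against 48.7% and 47.6%, and at 96 h 88.6% and 88.8% against 44.5% and 44.8%. The gap thus widened after 24 h in every sample.

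**Figure D3:**
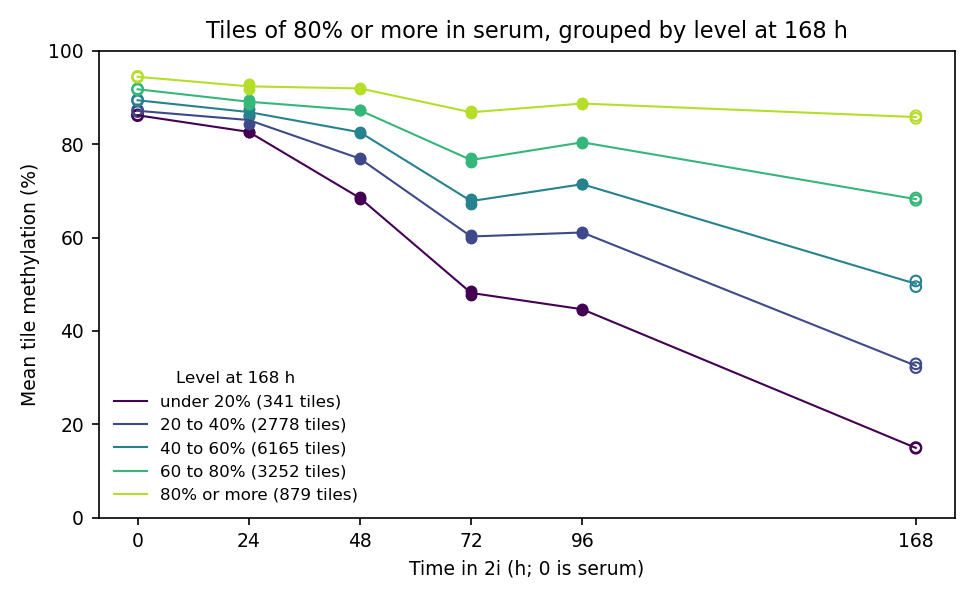
Mean methylation (%) over time in 2i of E14 tiles of 80% or more in both serum samples, grouped by their mean at 168 h, with 1 point per sample; open points were used to form the groups and filled points were not. At 96 h the group of 80% or more lies at 88.6% and 88.8% and the group under 20% at 44.5% and 44.8%.

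The same tiles differed in the wild-type controls of the knockout lines of the series, named UHRF1 WT (also labelled E14) and TET WT after the genes deleted in their partners. In UHRF1 WT at 168 h the tiles kept in E14 averaged 83.5% and 82.4% and the lost ones 25.01% and 24.8%, while the 1 serum sample used here stood at 96.4% and 95.7%. In the 1 sample of TET WT at 168 h they averaged 76.3% and 12.6%. TET WT was less methylated in serum, with 88.7% and 88.6% in the kept tiles and 66.4% and 66.7% in the lost ones, so its groups began apart. Retention by starting class of E14 was read there too. In UHRF1 WT it was 18.9% and 19.2% in the tiles of 20 to 40% in E14 serum and 57.2% and 56.1% in those of 80% or more, and in TET WT it was 25.7% and 54.9%. UHRF1 WT was more methylated in serum, where these classes averaged 57.1% and 95.9%, so the classes order its tiles by their level in E14, not by its own. Not every tile had 20 calls in these samples. In the second 168 h sample of UHRF1 WT, 235 kept and 99 lost tiles were read.

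A choice made on 1 sample of 168 h was also read in the other. The 988 tiles chosen at 80% or more on the first 168 h sample averaged 81.8% in the second, where 64.4% of them were again at 80% or more. The 423 tiles chosen under 20% on the first averaged 21.4% in the second.

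Over the E14 time course, loss in the mean over all tiles was seen from 48 h, but starting classes differed. In 55777 tiles that passed in all 12 E14 samples, the mean was 33.1% ± 0.433 in serum (SD, n = 2 at each time) and 35.3% ± 0.66 after 24 h. It had fallen to 29.5% ± 0.102 by 48 h and to 24.9% ± 0.24 by 72 h. After 96 h the mean was 23.8% ± 0.041, and 168 h gave 15.5% ± 0.13. Tiles under 5% averaged 1.15% in serum, 1.37%, 1.30% and 1.28% at 24, 48 and 72 h, and 0.636% at 96 h. The 24 h samples were above serum in tiles of intermediate level, 42.8% and 40.9% against 29.5% and 30.4% in tiles of 20 to 40%, but not in tiles of 80% or more, at 87.6% and 86.3% against 88.6% and 88.9%. The tiles of 80% or more stood at 68.5% and 67.6% at 72 h, slightly higher at 70.6% and 70.5% at 96 h, and at 50.0% and 50.6% at 168 h. Dense tiles of 60% or more began lower than sparse ones. Retention was 104% in tiles of 20 to 29 CpGs and 99.4% in tiles of fewer than 10 at 24 h, and 93.1% and 90.4% at 48 h. By 72 h their levels had parted, with 67.3% and 66.7% in tiles of 20 to 29 CpGs and 62.0% and 61.0% in tiles of fewer than 10.

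Chromosomes differed less than the starting classes, but by more than the spread between samples. In the 26946 autosomal tiles of 40% or more in serum, retention was 50.0% ± 0.444. It was highest on chromosome 3, at 54.8% ± 0.601, where 1188 tiles fell from 78.1% and 78.5% to 42.6% and 43.3%. It was lowest on chromosome 11, at 45.8% ± 0.457, where 2023 tiles fell from 75.9% and 76.6% to 34.7% and 35.1%. Chromosomes 13, 1, 6 and 14 followed at the upper end with 52.9%, 52.8%, 52.8% and 52.6%, and chromosomes 19, 8 and 5 at the lower end with 46.9%, 47.8% and 48.3%. Both 168 h samples gave a higher retention on chromosome 3 (54.4% and 55.3%) than on chromosome 11 (45.5% and 46.1%).

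A limma test of the ratio of each chromosome to all autosomes called 15 of 19 (78.9%), 7 higher and 8 lower, most of them by small amounts. The test measures the spread between samples only, and the spread between the tiles of a chromosome did not enter it. Whether any set of as many tiles would deviate by such small amounts was not tested. Chromosome 3 deviated by 0.13 on the log2 scale (SE 0.0031, limma adjusted p = 3.96e-07) and chromosome 11 by -0.13 (SE 0.0028, limma adjusted p = 3.96e-07). Chromosomes 9, 10, 12 and 17 were not called. The 9 chromosomes named in the ranking above were called with the same sign in 16 of 16 alternative settings. The smaller deviations held less often. Chromosome 2 kept its sign in 14 of the 16, and chromosome 7 was called in 9 and chromosomes 15 and 16 in 11. With the mix of starting classes and CpG classes set equal on every chromosome, chromosome 3 deviated by 0.13 and chromosome 11 by -0.09. Chromosome 13, with 64.7% of its tiles at 80% or more in serum against 56.6% on all autosomes, moved from 0.08 to 0.03. Starting level within a class was not set equal. Among tiles of 80% or more, retention ran from 46.7% at 80 to 85% to 71.2% at 95 to 100%. The part of starting level in the remaining deviations was not tested.

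**Figure D4:**
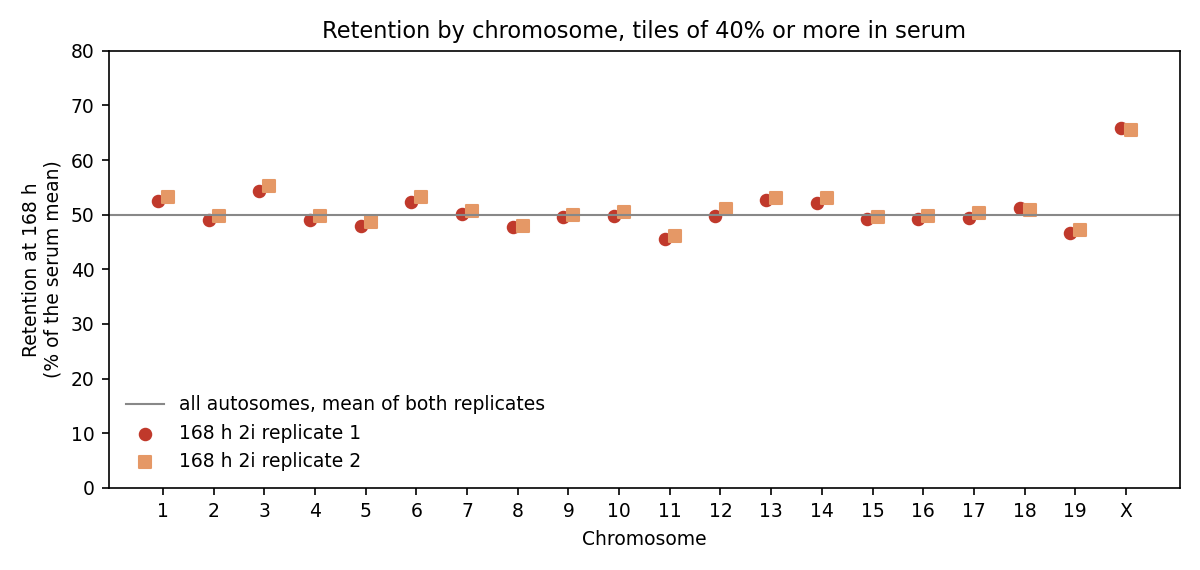
Retention at 168 h (percent of the serum mean) of tiles of 40% or more in serum, by chromosome, with 1 point per 168 h sample and a line at the mean of all autosomes, 50.0%. Chromosome 3 is the highest autosome at 54.4% and 55.3%, chromosome 11 the lowest at 45.5% and 46.1%, and the X lies at 65.9% and 65.5%.

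The X chromosome, not among the members and shown for scale, kept far more. Its 486 tiles of 40% or more fell from 78.3% and 79.4% to 51.9% and 51.6%, a retention of 65.7% ± 0.307, above each of the 19 autosomes in both samples. The difference was present in each of the 3 starting classes compared. Retention was 48.5% on the X against 31.9% on autosomes in tiles of 40 to 60%, 56.3% against 39.4% in tiles of 60 to 80%, and 71.4% against 57.0% in tiles of 80% or more. With the X added to the test of chromosomes, a choice made after its values were seen, it deviated by 0.39 on the log2 scale (SE 0.01, limma adjusted p = 4.73e-06).

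Gene starts were linked to tiles through the spacing of CpGs in promoter sequences, which placed 9263 RefSeq promoters without converting coordinates. Of these, 7528 promoters of 6840 genes lay in 6587 tested tiles. Only promoters with 8 or more CpGs could be placed, so CpG-poor starts are missing. Most start tiles were unmethylated, and 6070 stood under 5% in serum, averaging 0.606% and 1.20% there and 0.33% and 0.355% at 168 h. In 92 start tiles serum was at 60% or more, and 87 of them (94.6%) were called lower, beside 89.3% of all tiles at that level. They fell from 79.4% and 80.1% to 36.2% and 37.2%. Their retention was 46.0% ± 0.869 against 52.2% ± 0.496 in the other tiles of 60% or more, and they held more CpGs (17.5 against 11.95 on average). Within starting classes, retention was 37.8% against 39.4% in tiles of 60 to 80% and 52.1% against 57.0% in tiles of 80% or more.

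Retention ran from 12.3% to 84.0% over these 92 tiles. Among those lost most were the starts of Olfr750, an odorant receptor, from 74.1% and 88.1% to 12.5% and 7.41%, and Aox4, an aldehyde oxidase, from 90% and 79.2% to 16% and 6.67%. Klb, the co-receptor for the hormone FGF21, fell from 76.3% and 78.6% to 14.7% and 14.3%, and Pnliprp2, a pancreatic lipase, from 63.9% and 60.5% to 10.5% and 10.7%. Srgn, the proteoglycan serglycin of secretory granules, fell from 71.2% and 77.5% to 18.4% and 18.0%. In 10 of the 92, these 5 included, both 168 h samples were under 20%. By the mean at 168 h, 31.0% of all tiles of 60 to 80% in serum and 3.47% of those of 80% or more were under 20%. Acta1, the actin of skeletal muscle, fell from 69.7% and 77.6% to 14.5% and 27.0%. These genes were picked after their values were seen.

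In 8 start tiles both 168 h samples stayed at 60% or more. Of these, 6 belong to predicted genes (among them Gm36619, from 97.2% and 96.5% to 74.0% and 85.7%, and Gm35797, from 94.3% and 94.7% to 82.9% and 76.0%), and the other 2 are the imprinted starts of Plagl1 and Nnat. Of the 8, 3 were called lower. A placed gene start lay in 0 of the 879 tiles that kept 80% or more and in 0 of the 341 that ended under 20%, beside 0.243% to 0.432% of the tiles of like serum level that ended between.

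Germ line genes, whose promoters are silenced by methylation in somatic cells, fell at most of the starts tested. Of a list of 12, the starts of 10 were placed and 9 start tiles tested, of which 7 were called lower, beside 42.3% of all tiles. Of the start tiles at 20% or more in serum, 7 of 8 were called, beside 86.9% of all tiles of 20% or more, a share near the background. The starts of Slc25a31, Hormad1 and Tdrd1 were not called after thinning every sample to 20 calls. In these 8 the median fall was 31.5 points and the median retention 33.0%, against 37.0 points and 45.1% over all tiles of 20% or more. The starting levels differed, since 15257 of those 30533 tiles stood at 80% or more in serum and only 1 of the 8 did. Retention by starting class was 23.4% at 20 to 40%, 31.9% at 40 to 60% and 39.4% at 60 to 80%. Dazl, an RNA-binding protein needed for germ cells, fell from 57.5% and 64.2% to 22.6% and 19.9% on 248 to 623 calls. The tile at the next lower position, chr17:50432001-50432500 with 56 CpGs, was low throughout, at 5.88% and 5.07% in serum and 2.33% and 0.821% at 168 h. The tile at the next higher position, chr17:50433001-50433500, fell from 96.2% and 94.1% to 52.2% and 54.7%, so that 3 adjacent tiles held different levels in both media.

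The start tile of Tex101 fell from 87.8% and 82.9% to 39.2% and 46.5%, that of Sycp1 from 68.2% and 62.7% to 34.02% and 31.9%, and that of Asz1 from 62.6% and 64.6% to 18.4% and 21.3%. Slc25a31, an ADP/ATP carrier of the testis, fell from 56.3% and 41.5% to 22.6% and 13.98%. Hormad1, which acts in meiotic recombination, fell from 32.6% and 38.8% to 13.7% and 7.34%. Tdrd1, of the piRNA pathway, fell from 30.1% and 26.5% to 7.03% and 5.81%. Mael, of the same pathway, went from 24.0% and 24.2% to 6.35% and 7.11%, a difference of 17.4 points that passed the test (quasi-binomial F test, adjusted p = 2.1e-15) but not the minimum of 20. Tdrkh stood at 2.34% and 0% in serum and at 1.19% and 0% at 168 h. For the 8 methylated genes both samples of 168 h were below both of serum, an order that the means of all starting classes shared. The share of single tiles with this order was not counted.

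**Figure D5:**
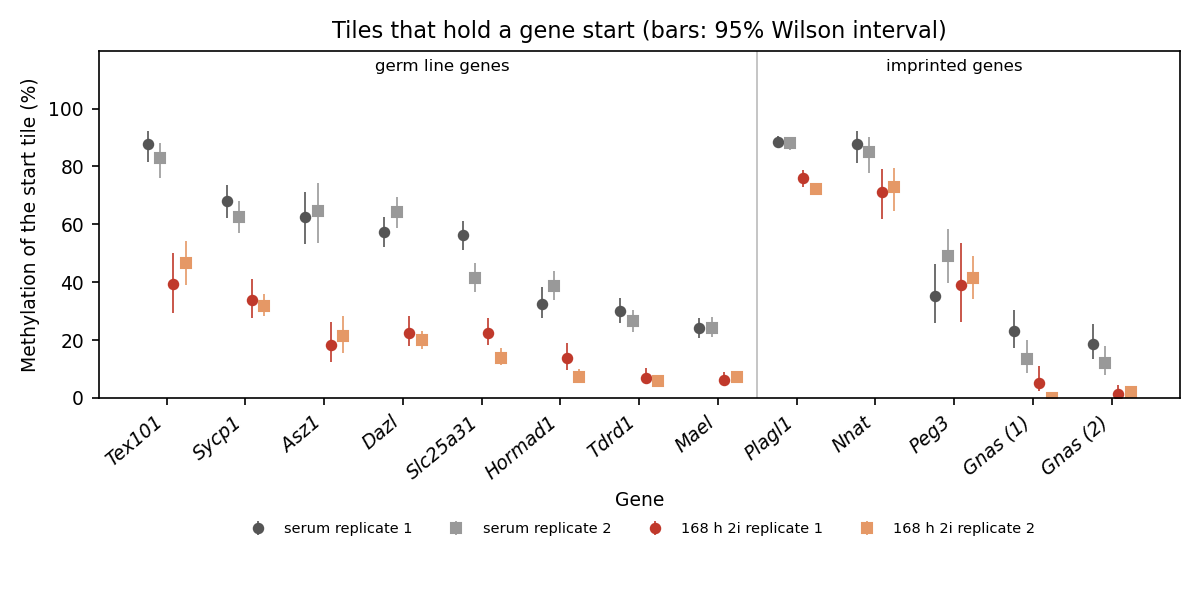
Methylation (%) of tiles that hold the start of a listed gene, in each of the 4 samples, with 95% Wilson intervals of the calls; germ line genes stand on the left and imprinted genes on the right. Plagl1 (75.9% and 72.2%) and Nnat (71.2% and 72.8%) stand highest at 168 h, and Peg3 overlaps between the media.

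At imprinted genes, the starts methylated in serum stood between 39.1% and 75.9% at 168 h. The list of 12 names holds Zac1 and Plagl1, which are the same gene. The starts of 6 genes were placed and 7 start tiles of 5 genes tested, of which 0 were called lower by the rule with 20 points, beside 42.3% of all tiles. Only 3 of the 7 stood at 20% or more in serum and could be called, beside 86.9% called of all tiles at that level. Plagl1 stood at 88.5% and 88.0% in serum and at 75.9% and 72.2% at 168 h, on 812 to 1889 calls, in a tile of 50 CpGs that also holds the start of Hymai. The 14.2 points by which it fell passed the test alone (quasi-binomial F test, adjusted p = 1.67e-15, 0.0436 with limma and 0.459 after thinning to 20 calls). Nnat, the proteolipid neuronatin, stood at 87.8% and 85.04% and then at 71.2% and 72.8% (quasi-binomial F test, adjusted p = 0.0048, but 0.0589 with limma, 0.0609 without the first serum sample and 0.438 after thinning to 20 calls), and the tiles on either side of it at 75.3% and 74.1% and at 58.9% and 65.6% at 168 h. Peg3, a zinc finger protein, stood at 35.4% and 49.1% in serum and at 39.1% and 41.5% at 168 h on 46 to 164 calls, in a tile that also holds the start of Usp29, and the media overlapped (quasi-binomial F test, adjusted p = 0.801). The 250 bases before the Peg3 start held 0 calls in each sample and those before the Nnat start 3 to 12. The levels of these start tiles thus come mainly from CpGs outside that stretch. In every sample Plagl1 and Nnat stood above the level that methylation of a single parental copy alone would give. The reason was not tested.

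The median retention of the 3 imprinted start tiles of 20% or more in serum was 83.9%, beside 45.1% over all tiles of that level. Plagl1 and Nnat began at 80% or more, where retention was 57.0% over all tiles. It was 69.3% there in tiles of 20 to 29 CpGs and 75.4% in those of 30 to 39. Peg3 began at 40 to 60%, where retention was 31.9%. A tile near the start of Kcnq1ot1, the antisense RNA of its imprinted cluster, stood at 56.0% and 44.4% in serum and at 54.2% and 48.9% at 168 h, on as few as 24 calls (quasi-binomial F test, adjusted p = 0.941). The pattern did not cover the list. At Gnas, which encodes a G protein subunit and has several starts, 1 start tile went from 23.2% and 13.4% to 5.26% and 0% (called without the second serum sample, at a difference of -20.6 points) and another from 18.8% and 12.03% to 1.31% and 1.90%, and the third stayed near 0. Grb10, an adaptor of growth factor receptors, stood at 0.604% and 1.61% in serum and at 0.589% and 0.749% at 168 h. The starts of Snrpn, Mest, H19, Peg10 and Impact, and of the germ line genes Ddx4 and Sycp3, were not analysed here.

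Expression of these genes was read in the other E14 samples, with no sample at 168 h, and is given without a test. Among germ line genes with a tested start, Dazl stood at 1.03 ± 0.19 in serum and at 3.44 ± 0.24 at 72 h on the log2 scale (SD, n = 3), Hormad1 at 2.14 ± 0.27 and 3.17 ± 0.11, and Slc25a31 at 0.10 ± 0.06 and 0.56 ± 0.17. The mean was lower at 72 h for Mael (3.23 ± 0.26 and 2.79 ± 0.25), Tdrd1 (-0.36 ± 0.03 and -1.08 ± 0.54), Tdrkh (0.24 ± 0.17 and -0.47 ± 0.07) and Tex101 (-1.06 ± 0.35 and -1.34 ± 0.72). Sycp1 stood at 0.51 ± 0.23 and 0.82 ± 0.21 and Asz1, near the bottom of the scale, at -5.31 ± 1.04 and -4.11 ± 0.66. Several of these differences lie within the spread, and some did not have the same direction at 24 h, where Sycp1 stood at -0.19 ± 0.71 and Mael at 3.30 ± 0.28. Among imprinted genes with a tested start, Plagl1 stood at -0.59 ± 0.28 and 1.72 ± 0.53, while Nnat (2.18 ± 0.09 and -0.55 ± 0.83), Peg3 (2.84 ± 0.10 and 1.17 ± 0.51) and Grb10 (4.52 ± 0.07 and 3.69 ± 0.21) were lower at 72 h. Gnas stood at 3.83 ± 0.02 and 3.70 ± 0.10. Whether these differences go with the methylation of the starts was not tested.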

How the data were processed

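RRBS of E14 in serum and at 168 h of 2i (2 samples each) was analysed. The authors deposited, per cytosine position, counts of methylated and unmethylated calls beside a percent. The submitters' processing notes name Trim Galore 0.3.5 and Bismark 0.12.3, and the study names the build NCBIM37. Strands are separate positions, and duplicates are not marked. From the deposited counts, calls were pooled in autosomal 500-bp tiles with 20 or more calls and 3 or more positions in all 4 samples. Tile levels were unweighted in class means.

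Each tile was tested with a quasi-binomial model in R 4.3.3, its residual deviance moderated with squeezeVar of limma 3.58.1, an F test and Benjamini-Hochberg adjustment. Moderation gave every tile the trended dispersion (median 1.74), so a tile's own spread between replicates did not enter its p-value. On simulated counts the test called 80 of 100 tiles with a fall of 30 points and 100 of 100 with 50 points. Only these tiles changed there, and the replicate noise was a set value. In the data 59.4% of tiles were lower at an adjusted p under 0.05, so these rates do not carry over. Chromosomes were tested with limma on log2 ratios to all autosomes. Single values were tested by exact permutation. Intervals are Wilson 95%.

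CpGs were counted over 58 bisulfite samples. RefSeq promoters (GRCm38.p6, 300 bases, 8 or more CpGs) were placed where their CpG spacing matched called positions. Of 15982, 9276 matched once, 9263 of these on the listed chromosome, and 9235 of 9243 neighboring pairs kept their order. This method was chosen after the data were seen. The deposited log2 expression values, normalized by the authors, were read without change. Named tiles needed 50 or more calls in every sample and a distance of 10 kb. They were the 5 greatest falls, 5 highest levels at 168 h and 5 greatest rises, the median tile of each CpG class and the 3 longest kept runs. The members, lists and classes were chosen with earlier results of these data known. The gene lists were meant for an annotation of NCBIM37, which was not used here.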

Additional observations from a re-analysis of the deposited data

How the results depend on the processing

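Of 107 alternative settings of the main results, 102 kept the direction, 5 moved and 0 reversed. Counts of calls were allowed to change by up to 1.5 times, and for the mean difference and the log2 ratios only the direction was asked for. In the main tiles no rise reached 20 points, so a count of 0 tiles higher was fixed in settings with the same group means and minimum. Tiles lower at 168 h numbered 15285 with a minimum of 50 calls and 11471 with a minimum of 5 positions, in place of 26525, which is 32.8% of 46662 and 27.1% of 42288 tiles in place of 42.3%. The cause was not tested. Tiles higher numbered 12 with no minimum difference. Without 1 sample each, tiles lower ranged from 25705 to 26108, tiles higher from 0 to 1 (1 without either sample of 168 h), the mean difference from -19.4 to -18.8 points, the log2 ratio by starting level from 1.22 to 1.29, that by CpG density from 0.27 to 0.28, and called chromosomes from 12 to 18. The mean difference was -7.41 points over pooled calls, -9.50 over positions, -12.5 with 5 positions and -14.9 with 50 calls, and the CpG ratio was 0.06 when positions were counted. The cause was not tested. Whether replicate numbers pair the samples is not given by the labels. The correlation across tiles of the replicate differences in the 2 media was 0.0109, which cannot exclude pairing with 2 pairs. With a replicate block 26519 tiles were lower and the mean difference was -19.1. Of 516 settings over 52 named tiles, 508 left the tile called or not called, as it was before. In 5 the call was lost, all after thinning to 20 calls (the starts of Slc25a31, Hormad1, Tdrd1 and Vmn2r29 and a tile beside Tex101). In the other 3 the difference passed 20 points only without 1 sample (-20.6 at a start of Gnas, -21.5 beside Nnat and 22.5 at the greatest rise, on chromosome 3). Only called tiles could count as reversed, and 0 did. Some uncalled tiles changed sign, such as chr6:4697001-4697500, from 4.07 points to -7.5 after thinning.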

Other observations

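Genes that are no members of either list but hold a start tile of 60% or more in serum include other germ cell genes. They were picked after their values were seen, and no test was run on them as a group. The start tile of Tdrd9, of the piRNA pathway, stood at 83.7% and 89.7% in serum and at 40.7% and 32.8% at 168 h. That of Fkbp6, which acts in meiosis and the piRNA pathway, stood at 63.6% and 69.3% and then at 24.4% and 23.7%. That of Adad2, a testis RNA-binding protein, stood at 66.0% and 65.6% and then at 28.4% and 29.4%. Nlrp5, a maternal-effect gene of the oocyte, stood at 75.9% and 71.0% and then at 26.7% and 44.4%. All 4 were called lower, as were 87 of the 92 start tiles at this level.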
